A study of Mus musculus with 15 samples.

Results

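Glycolysis in these hearts was followed through 10 genes that form 5 isozyme pairs, taken by name from a table of 39331 genes. They are the hexokinases Hk2 and Hk1, the aldolases Aldoa and Aldoc, the phosphoglycerate mutases Pgam2 and Pgam1, the enolases Eno3 and Eno1, and the lactate dehydrogenases Ldhb and Ldha. All 10 were found and all 10 passed the filter on low counts. Messenger RNA had been sequenced from left ventricles of C57BL/6 mice that had undergone experimental myocardial infarction, and the question, from the study's title, was how adult T cells bear on the injured neonatal heart. Adult hearts given adult T cells make up 4 libraries (adult recipients 1 to 4) and control adult hearts make up 3 (adult controls 5 to 7). Neonatal hearts given adult T cells make up 4 libraries (neonatal recipients 1, 2, 4 and 5) and control neonatal hearts, left untreated, make up 4 (neonatal controls 6 to 9). Infarction and strain are common to every group, so no uninjured heart stands beside them. A time of 36 h is given with neonatal hearts only. Age and time after infarction thus cannot be told apart in any comparison of adult with neonatal hearts. Neither ages in days, cell doses nor the region sampled relative to the infarct are given. Whether each library came from a separate animal is not stated, so p-values measure the spread between these libraries.

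Glycolysis breaks glucose down to pyruvate, and several of its steps are carried out by isozymes encoded by separate genes. Skeletal muscle and the adult heart are known for Pgam2, Eno3 and, in the heart, Ldhb, while Pgam1, Eno1 and Ldha prevail in many other and in fetal tissues. Hexokinase phosphorylates glucose at the entry of the pathway, and Hk1 is the form of the fetal heart while Hk2 is the insulin-responsive form of adult muscle. Aldolase A is the muscle enzyme and aldolase C the brain enzyme. After birth the heart moves from glucose and lactate towards fatty acids as its main fuel.

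In 4 of the 5 pairs the genes were called in opposite directions between adult and neonatal controls, and promoter sequences are printed as examples for 2 of these, Pgam2 with Pgam1 and Ldhb with Ldha. Each is the 250 bases before a RefSeq start on GRCm38.p6, read 5′ to 3′ on the gene's strand. Capitals mark ACGTG on either strand, a form of the core bound by hypoxia-inducible factors, and in Pgam2 the match to the consensus of MEF2, a transcription factor family of muscle. The other form of that core, GCGTG, was neither searched, counted nor marked. The Pgam2 window lies at chr11:5803797-5804046 on the minus strand, that of Pgam1 at chr19:41911621-41911870 on the plus strand, that of Ldhb at chr6:142507958-142508207 on the minus strand and that of Ldha at chr7:46845554-46845803 on the plus strand.
Pgam2: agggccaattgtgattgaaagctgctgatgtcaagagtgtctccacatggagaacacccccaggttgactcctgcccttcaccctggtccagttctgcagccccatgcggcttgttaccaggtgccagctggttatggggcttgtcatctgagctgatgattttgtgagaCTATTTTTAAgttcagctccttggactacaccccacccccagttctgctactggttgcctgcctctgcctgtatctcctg
Pgam1: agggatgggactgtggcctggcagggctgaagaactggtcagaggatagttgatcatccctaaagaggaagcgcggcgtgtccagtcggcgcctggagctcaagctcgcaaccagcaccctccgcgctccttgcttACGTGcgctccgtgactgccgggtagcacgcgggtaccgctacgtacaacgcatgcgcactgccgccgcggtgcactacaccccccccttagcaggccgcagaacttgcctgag
Ldhb: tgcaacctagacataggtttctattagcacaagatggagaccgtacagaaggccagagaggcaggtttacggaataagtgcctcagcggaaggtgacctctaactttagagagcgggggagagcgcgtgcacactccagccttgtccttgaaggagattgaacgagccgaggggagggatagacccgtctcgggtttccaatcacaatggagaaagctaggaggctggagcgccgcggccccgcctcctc
Ldha: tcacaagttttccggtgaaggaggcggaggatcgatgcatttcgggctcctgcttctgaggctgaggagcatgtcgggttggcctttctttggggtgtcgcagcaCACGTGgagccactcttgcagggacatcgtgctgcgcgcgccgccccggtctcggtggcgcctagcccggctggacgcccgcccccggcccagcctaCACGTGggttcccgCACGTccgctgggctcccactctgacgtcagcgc
The Ldha window belongs to the first start listed by RefSeq, which lies inside the gene's span in the count table. It holds CACGTG at 2 places, each of which reads as ACGTG on both strands, and 1 further ACGTG on the reverse strand. All 10 members matched RefSeq by gene ID, with 17 windows, since several have more than 1 start. The span of Eno1 in the count table differed from that in RefSeq. ACGTG on either strand was in 5 of these windows, of Hk2, Ldha, Aldoa (in an overlapping pair) and Pgam1, and in 16.6% of 32851 windows of all genes. CACGTG, which contains ACGTG, was found in Ldha alone of the members and in 6.02% of all windows. MEF2 matches were found in Pgam2 alone of the members and in 2.92% of all windows. TNAAGGTCA, the site of estrogen-related receptors, was in no member window and in 1.14% of all windows. A match describes letters only, and the lack of one says nothing about a factor.

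Library totals ran from 21871617 to 34302786 counts, and 3 counts, the floor used here, correspond to 0.0875 to 0.137 CPM, counting error only. Levels are CPM after TMM scaling, given as mean ± SD over the libraries of a group, and differences are log2 fold changes ± standard error from 1 edgeR quasi-likelihood fit over all 15 libraries. P-values were adjusted by the Benjamini-Hochberg method across 16437 tested genes, and adjusted p under 0.05 counts as passing. Markers fitted heart muscle, as 10 of 10 cardiomyocyte markers had counts in every group. No list of atrial markers was examined, so the ventricular label itself was not tested. The summed level of the cardiomyocyte markers was 64046 to 71152 CPM in adult recipients, 52123 to 55940.3 in adult controls, 43285 to 52879 in neonatal recipients and 47195 to 50689 in neonatal controls. Skeletal muscle markers, which would accompany Pgam2 and Eno3 from another muscle, summed to at most 22.9 CPM over 10 genes in any library. Neonatal control 8 stood apart from the other neonatal controls for several members and had the lowest macrophage marker sum of the neonatal libraries, 256 CPM against 448 to 1024 CPM in the others. Its sums were also the lowest of these libraries for fibroblast markers (3762 CPM against 4773 to 6348) and neutrophil markers (22.9 CPM against 32.4 to 63.1). In such bulk samples, fewer cells of a type and less RNA per cell cannot be told apart.

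Set against transcript length, Aldoa was the most abundant member in every group and Aldoc the least. Aldoa reached 1338 ± 79.1 CPM per kb in adult recipients, 1036 ± 70.5 in adult controls, 1060.4 ± 75.4 in neonatal recipients and 1032 ± 87.7 in neonatal controls. Aldoc stayed between 0.599 ± 0.0868 CPM per kb in adult controls and 2.10 ± 0.454 in neonatal controls. The places in between differed between adult and neonatal hearts. In both adult groups the order after Aldoa was Eno3, Ldhb, Pgam2, Ldha, Eno1, Hk1, Pgam1 and Hk2. In both neonatal groups Ldha stood second, followed by Eno3, Ldhb, Pgam2, Eno1, Hk1, Pgam1 and Hk2. Neighbours that differed by less than the larger of their 2 SDs were Eno3 and Ldhb, and Hk1 and Pgam1, in both neonatal groups, and Ldha and Eno3 in neonatal controls. No neighbours in either adult group were that close.

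**Figure D1:**
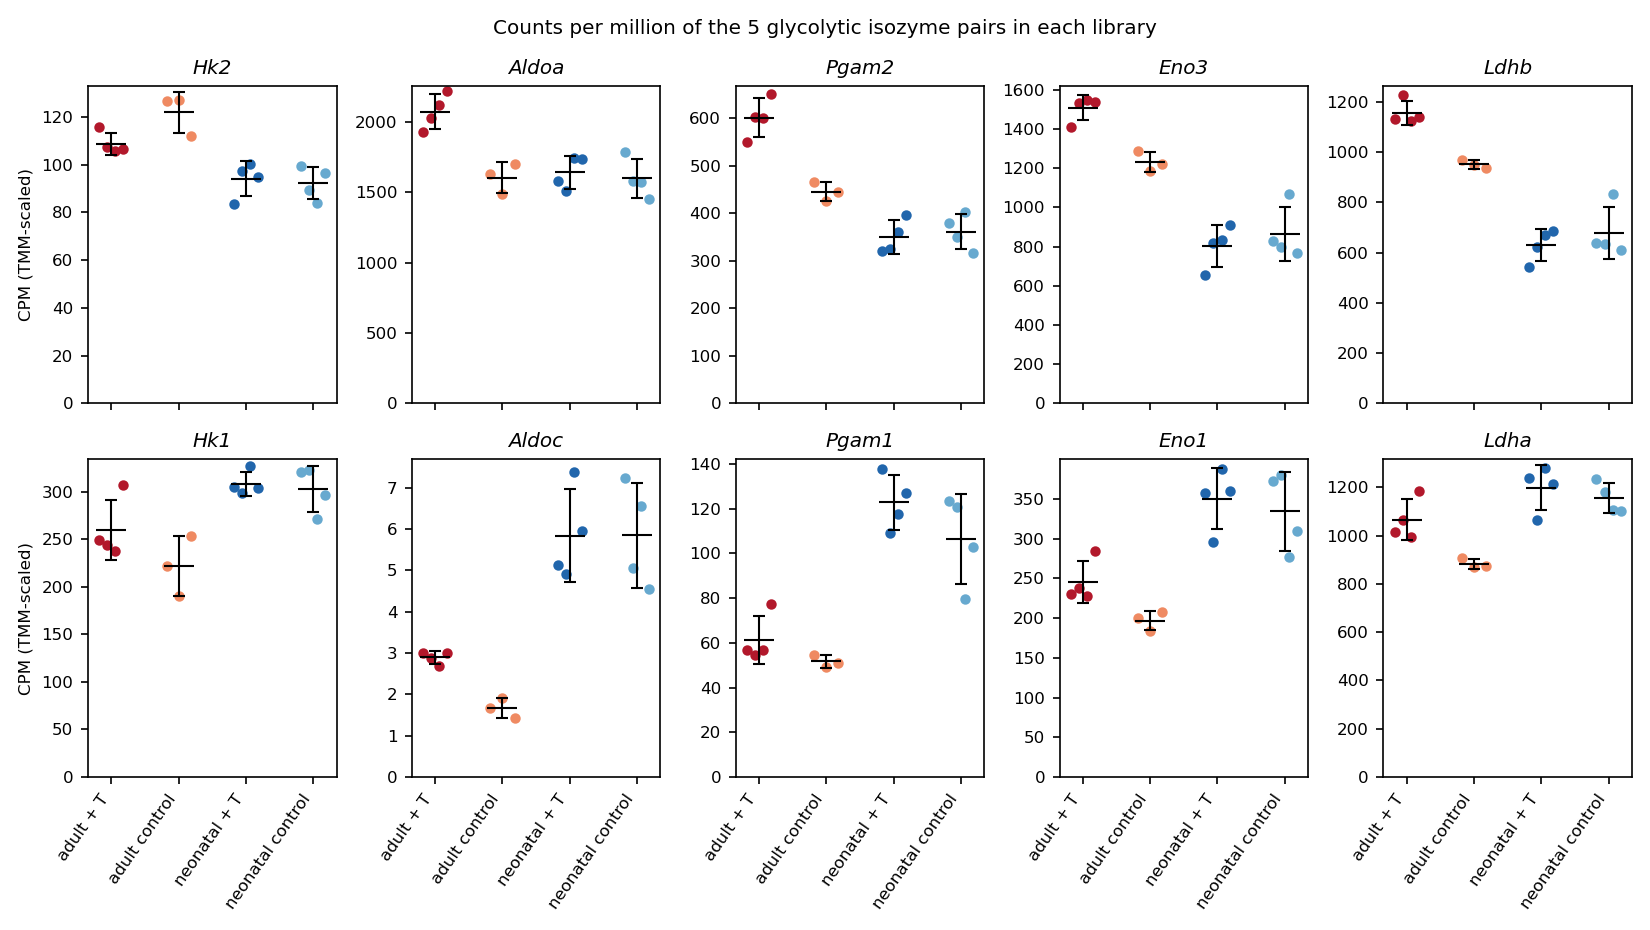
Level of each member in CPM, 1 point per library, with the group mean and SD as lines; the upper row holds Hk2, Aldoa, Pgam2, Eno3 and Ldhb, the lower row their partners, and each axis starts at 0. Hk2, Pgam2, Eno3 and Ldhb lay higher in all 7 adult libraries than in all 8 neonatal ones. Pgam1, Aldoc and Eno1 showed the reverse, except that for Eno1 adult recipient 4 (285 CPM) passed neonatal control 8 (276 CPM).

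Per length, Hk1 transcripts outnumbered those of Hk2 at both ages, and the Hk2 part was larger in adults. Hk2 (gene ID 15277, chr6:82725025-82774454, minus strand) measured 116, 107, 106 and 106 CPM in adult recipients 1 to 4 and 127, 127 and 112 CPM in adult controls 5 to 7. In neonatal hearts its levels were 83.6, 97.4, 100.4 and 94.9 CPM in neonatal recipients 1, 2, 4 and 5 and 99.4, 89.5, 84.1 and 96.4 CPM in neonatal controls 6 to 9. All adult libraries exceeded all neonatal libraries for this gene. Its log2 fold change was 0.21 ± 0.0735 (adjusted p = 0.0232) between adult and neonatal recipients, and 0.40 ± 0.0788 (adjusted p = 0.000996) between adult and neonatal controls. Hk1 (gene ID 15275, chr10:62268855-62379920, minus strand) measured 249, 245, 238 and 307 CPM in adult recipients and 223, 190.3 and 253 CPM in adult controls. Neonatal hearts had 305, 299, 327 and 304 CPM in neonatal recipients 1, 2, 4 and 5 and 321, 323, 272 and 297 CPM in neonatal controls 6 to 9. The adult controls lay below every neonatal control, whereas adult recipient 4 lay within the neonatal recipients' range. Hk1 was lower in adults in both comparisons, with log2 fold changes of -0.25 ± 0.0945 (adjusted p = 0.0350) in recipients and -0.45 ± 0.103 (adjusted p = 0.00320) in controls. The recipient values of both hexokinases rested on single libraries. For Hk2 the value was 0.18 (adjusted p = 0.0746) without adult recipient 1 and 0.16 (adjusted p = 0.0906) without neonatal recipient 1. For Hk1 the adjusted p was over 0.05 without any 1 of adult recipients 1, 2 or 3 or neonatal recipients 1, 4 or 5, and its highest value was 0.104, at -0.21 without adult recipient 3. With a trend over transcript length removed, Hk1 measured -0.11 (adjusted p = 0.331) between the recipients.

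Counts of Hk2 relative to Hk1 were 0.464, 0.438, 0.444 and 0.347 in adult recipients and 0.570, 0.668 and 0.442 in adult controls. They were 0.274, 0.325, 0.307 and 0.312 in neonatal recipients and 0.310, 0.277, 0.310 and 0.325 in neonatal controls. The lowest adult ratio, in adult recipient 4, stood above the highest neonatal ones, in neonatal recipient 2 and neonatal control 9. Corrected for transcript length, Hk2 made up 24.7% ± 2.35 of the pair in adult recipients, 30.1% ± 4.33 in adult controls, 19.1% ± 1.11 in neonatal recipients and 19.2% ± 1.03 in neonatal controls.

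Aldolase, which splits fructose 1,6-bisphosphate into triose phosphates, was almost wholly Aldoa. Aldoa (gene ID 11674, chr7:126795234-126800994, minus strand) measured 1931, 2025, 2118 and 2217 CPM in adult recipients and 1631, 1485 and 1698 CPM in adult controls. Neonatal hearts had 1583, 1507, 1743 and 1737 CPM in neonatal recipients 1, 2, 4 and 5 and 1783, 1584, 1571 and 1456 CPM in neonatal controls 6 to 9. Only the adult recipients stood apart, above every other library. Aldoa was higher in adult than in neonatal recipients, by 0.34 ± 0.0827 (adjusted p = 0.00244), and measured 0.01 ± 0.0892 (adjusted p = 0.969) between the controls, a difference whose 95% interval ran from -0.17 to 0.18. Aldoc (gene ID 11676, chr11:78323073-78327781, plus strand) measured 3.01, 2.87, 2.69 and 3.01 CPM in adult recipients and 1.68, 1.90 and 1.42 CPM in adult controls, against 5.12, 4.91, 7.38 and 5.95 CPM in neonatal recipients 1, 2, 4 and 5 and 7.24, 5.05, 6.56 and 4.54 CPM in neonatal controls 6 to 9. Every adult library was below every neonatal one. The difference was -1.01 ± 0.175 (adjusted p = 0.000119) in recipients and -1.81 ± 0.202 (adjusted p = 5.13e-06) in controls. The ratio of Aldoa to Aldoc counts averaged 718 ± 60.7 in adult recipients, 982 ± 208 in adult controls, 286 ± 34.2 in neonatal recipients and 280.1 ± 43.1 in neonatal controls. The denominator is a transcript between 1.42 and 7.38 CPM, and the lowest per-length share of Aldoa in any library was 99.76%, in neonatal recipient 4.

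Phosphoglycerate mutase moves the phosphate group of 3-phosphoglycerate, and its muscle gene Pgam2 was higher and its widely expressed gene Pgam1 lower in adults. Pgam2 (gene ID 56012, chr11:5801637-5803796, minus strand) measured 549.9, 603, 601 and 651 CPM in adult recipients and 466, 426 and 446 CPM in adult controls. Its neonatal levels were 320.2, 325, 361 and 397 CPM in neonatal recipients 1, 2, 4 and 5 and 379, 349, 402 and 316 CPM in neonatal controls 6 to 9. All adult libraries exceeded all neonatal ones, and adult recipients exceeded adult controls. The age difference was 0.78 ± 0.0881 (adjusted p = 1.72e-06) in recipients and 0.30 ± 0.0942 (adjusted p = 0.0211) in controls. The control value lost its call without any 1 of adult controls 5 or 7 or neonatal controls 7 or 9, with 0.24 to 0.36 as the range over all 15 libraries left out in turn and adjusted p = 0.0906 at most. Pgam1 (gene ID 18648, chr19:41911871-41918665, plus strand) measured 56.8, 54.7, 56.6 and 77.4 CPM in adult recipients and 54.7, 49.3 and 51.0 CPM in adult controls, against 138, 109, 118 and 127 CPM in neonatal recipients 1, 2, 4 and 5 and 123, 121, 79.6 and 103 CPM in neonatal controls 6 to 9. Adult recipient 4 was the highest adult library and neonatal control 8 the lowest neonatal one, and these were 77.4 and 79.6 CPM, without overlap of the ages. Pgam1 was lower in adults, with log2 fold changes of -1.0 ± 0.131 (adjusted p = 1.31e-05) in recipients and -1.05 ± 0.144 (adjusted p = 6.95e-05) in controls.

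The ratio of Pgam2 to Pgam1 counts was 9.68, 11, 10.6 and 8.41 in adult recipients and 8.52, 8.64 and 8.73 in adult controls. It was 2.33, 2.98, 3.07 and 3.13 in neonatal recipients and 3.08, 2.90, 5.05 and 3.07 in neonatal controls. Neonatal control 8 had the highest neonatal ratio and still lay below every adult library. Per length, Pgam2 made up 95.4% ± 0.539 of the pair in adult recipients, 94.8% ± 0.0619 in adult controls, 85.7% ± 1.76 in neonatal recipients and 87.7% ± 2.53 in neonatal controls.

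Enolase forms phosphoenolpyruvate, and its muscle form Eno3 prevailed at both ages. Eno3 (gene ID 13808, chr11:70653125-70662513, plus strand) measured 1411, 1532, 1549 and 1538 CPM in adult recipients and 1288, 1186 and 1219.5 CPM in adult controls. The neonatal libraries had 656, 816, 833 and 907 CPM in neonatal recipients 1, 2, 4 and 5 and 826, 798, 1066 and 766 CPM in neonatal controls 6 to 9. Neonatal control 8 was again the highest neonatal library, below every adult one. The difference between ages was 0.91 ± 0.105 (adjusted p = 2.21e-06) in recipients, and 0.51 ± 0.112 (adjusted p = 0.00234) in controls. Eno1 (gene ID 13806, chr4:150236692-150248873, plus strand), the ubiquitous enolase, measured 231, 238, 228 and 285 CPM in adult recipients and 200.1, 183 and 207 CPM in adult controls, against 357, 296, 388 and 360.4 CPM in neonatal recipients 1, 2, 4 and 5 and 372, 379.6, 276 and 309.9 CPM in neonatal controls 6 to 9. Within recipients and within controls the ages did not overlap. Eno1 was lower in adults, with log2 fold changes of -0.51 ± 0.107 (adjusted p = 0.000604) in recipients and -0.76 ± 0.117 (adjusted p = 0.000119) in controls. The ratio of Eno3 to Eno1 counts was 6.12, 6.42, 6.80 and 5.40 in adult recipients, 6.44, 6.46 and 5.88 in adult controls, 1.84, 2.76, 2.15 and 2.52 in neonatal recipients and 2.22, 2.10, 3.86 and 2.47 in neonatal controls. Per length, Eno3 made up 88.8% ± 0.992 of the pair in adult recipients, 89.0% ± 0.525 in adult controls, 74.7% ± 3.40 in neonatal recipients and 76.7% ± 4.57 in neonatal controls.

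Lactate dehydrogenase interconverts pyruvate and lactate, and it was the pair whose more abundant isozyme per length differed with age, apart from neonatal control 8. Ldhb (gene ID 16832, chr6:142490249-142507957, minus strand) measured 1132, 1229, 1125 and 1141 CPM in adult recipients and 969.9, 949 and 937 CPM in adult controls. In the neonatal groups it had 545, 624, 669.6 and 685 CPM in neonatal recipients 1, 2, 4 and 5 and 639.8, 635, 834 and 611 CPM in neonatal controls 6 to 9. The ages did not overlap, and the difference was 0.87 ± 0.0955 (adjusted p = 1.19e-06) in recipients and 0.49 ± 0.102 (adjusted p = 0.00164) in controls. Ldha (gene ID 16828, chr7:46842274-46855627, plus strand) measured 1016, 1066, 996 and 1185 CPM in adult recipients and 907, 870.2 and 874 CPM in adult controls, against 1240.0, 1064, 1281 and 1212 CPM in neonatal recipients 1, 2, 4 and 5 and 1234, 1179, 1107 and 1102 CPM in neonatal controls 6 to 9. Adult controls lay below all neonatal controls, while adult recipients 2 and 4 lay within the neonatal recipients' range. Ldha was lower in adult than in neonatal controls, with a log2 fold change of -0.39 ± 0.0850 (adjusted p = 0.00234). Between the recipients it measured -0.17 ± 0.0781 (adjusted p = 0.0770), which missed the threshold, with a 95% interval from -0.32 to -0.02. Without adult recipient 4 this value was -0.23 (adjusted p = 0.0288), and without neonatal recipient 2 it was -0.22 (adjusted p = 0.0241). With the trend over transcript length removed (Spearman's rho of -0.26 across genes in this comparison), it was -0.19 (adjusted p = 0.0182).

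Ldhb counts relative to Ldha counts were 1.11, 1.15, 1.13 and 0.963 in adult recipients and 1.07, 1.09 and 1.07 in adult controls. They were 0.439, 0.587, 0.523 and 0.565 in neonatal recipients and 0.519, 0.538, 0.753 and 0.555 in neonatal controls. Per length, Ldhb thus made up 60.2% ± 1.99 of the pair in adult recipients and 60.0% ± 0.251 in adult controls, the larger part in all 7 libraries. It made up 42.3% ± 3.11 in neonatal recipients and 44.9% ± 4.26 in neonatal controls, the smaller part in every neonatal library except control 8, where it was 51.2%.

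The balance between isozymes differed between adult and neonatal hearts at all 5 steps, in adults each time towards the gene known from muscle or heart. Age and an unknown time after infarction in adults cannot be told apart here. Over all 15 libraries the ratio was higher in adults by 1.57 on the log2 scale (2.96-fold) for Aldoa over Aldoc and by 1.56 on the log2 scale (2.95-fold) for Pgam2 over Pgam1. It was higher by 1.35 on the log2 scale (2.55-fold) for Eno3 over Eno1, by 0.97 on the log2 scale (1.95-fold) for Ldhb over Ldha and by 0.66 on the log2 scale (1.58-fold) for Hk2 over Hk1. For aldolase the denominator Aldoc lay at only 1.42 to 7.38 CPM, and Aldoa was not called between the controls. The aldolase difference ran from 1.20 to 1.56 on the log2 scale over the 3 other settings of the ratios. No adult library overlapped a neonatal one in any of these 5 ratios. For single genes, separation by the looser criterion within recipients alone was frequent, at 45.4% of them, as within controls alone, at 34.6%. The share with all adult libraries apart from all neonatal ones was not computed, for single genes or for ratios of other gene pairs. The count of 5 ratios thus has no matching share to be set beside. In an exact two-sided permutation test with age labels exchanged within recipients and within controls, p was 0.000816 for enolase (adjusted p = 0.00327 over 20 ratio tests). For the other 4 pairs p was 0.000408, the smallest that the permutations can give (adjusted p = 0.00204). The direction was found among recipients and among controls. Hk2 over Hk1 was 1.38-fold higher in adult recipients than in neonatal recipients and 1.81-fold higher in adult than in neonatal controls. Pgam2 over Pgam1 gave 3.46-fold in recipients and 2.52-fold in controls. Without neonatal control 8 the log2 differences were 1.65 for Pgam2 over Pgam1, 1.45 for Eno3 over Eno1 and 1.03 for Ldhb over Ldha. A ratio within a library does not depend on how libraries are scaled.

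**Figure D2:**
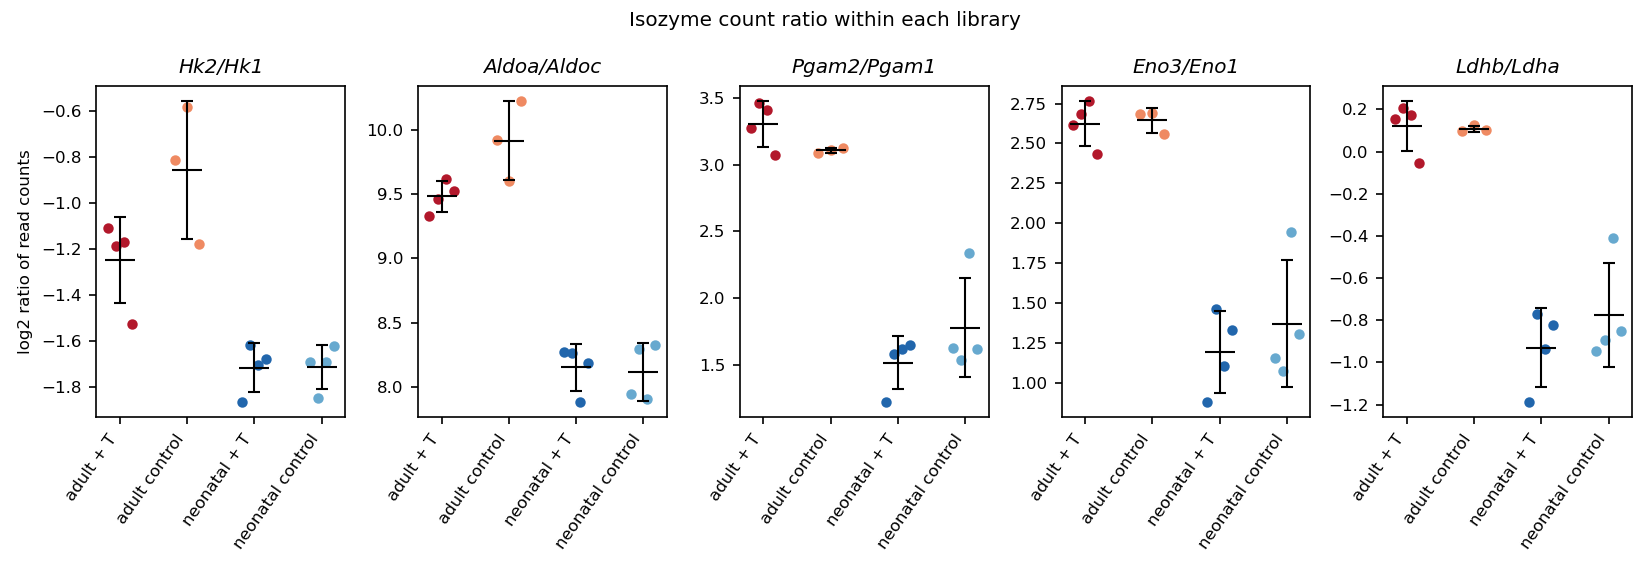
Log2 ratio of the counts of each isozyme pair in each library, with the group mean and SD as lines; axes differ between panels and do not start at 0. All 7 adult libraries lie above all 8 neonatal libraries in each panel. Neonatal control 8 is the highest neonatal point for Pgam2 over Pgam1, at a ratio of 5.05, for Eno3 over Eno1, at 3.86, and for Ldhb over Ldha, at 0.753.

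Counted gene by gene, 9 of 10 members passed the test between adult and neonatal recipients, 5 higher and 4 lower, beside 50.7% of all genes tested (23.8% higher and 26.9% lower). Between adult and neonatal controls 9 of 10 passed, 4 higher and 5 lower, beside 30.9% of all genes (15.6% higher and 15.4% lower). In recipients the levels of 5 members lay higher without overlap, beside 21.6% of genes, and those of 3 lower, beside 23.8%, or 45.4% in either direction. In controls 4 lay higher without overlap, beside 17.7% of genes, and 5 lower, beside 16.9%, or 34.6% in either direction. At an unadjusted p under 0.05 were 10 members and 56.1% of genes in recipients, and 9 members and 41.5% of genes in controls. The median log2 fold change of the members was 0.02 in recipients and -0.19 in controls, against -0.03 and -0.02 over all genes tested. Scaling by library totals alone moved the median over all genes to -0.23 in recipients and -0.18 in controls, and turned the split of all calls to 2279 higher and 6853 lower in recipients and 1413 and 5152 in controls, in place of 3919 and 4420, and 2559 and 2526. Under it Hk2 and Aldoa lost their calls in recipients (0.01 and 0.14), Pgam2 lost its call in controls (0.14), Ldha passed in recipients (-0.36) and Aldoa in controls turned to -0.16, not called. The other members kept their direction and their side of the threshold in both comparisons.

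The comparison of adult hearts with and without transferred T cells found 3 members higher in recipients and none lower. Aldoa measured 2073 ± 123 CPM in adult recipients and 1605 ± 109 CPM in adult controls (SD, n = 4 and 3), a log2 fold change of 0.37 ± 0.0899 (adjusted p = 0.0237). Pgam2 averaged 601 ± 41.4 CPM in adult recipients and 446 ± 20 CPM in adult controls, with 0.43 ± 0.0954 (adjusted p = 0.0196). Aldoc averaged 2.89 ± 0.150 CPM in adult recipients and 1.67 ± 0.242 CPM in adult controls, with 0.80 ± 0.208 (adjusted p = 0.0295). All 4 recipients were above all 3 controls for each of these genes. Among all genes, 8.55% passed in this comparison, 3.53% higher and 5.03% lower. Library totals alone as the scaling gave 458 higher and 1034 lower calls in place of 580 and 826, with the same 3 members past the threshold.

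The remaining 7 members did not pass. Log2 fold changes were 0.32 ± 0.116 for Eno1, 0.29 ± 0.114 for Eno3, 0.28 ± 0.103 for Ldhb and 0.27 ± 0.0848 for Ldha, with adjusted p from 0.0530 to 0.107, and for each of these the recipients lay above the controls without overlap. Pgam1 measured 0.25 ± 0.143 (adjusted p = 0.274), and Hk1 0.23 ± 0.103 (adjusted p = 0.161). Without adult recipient 4 these were 0.12 for Pgam1 and 0.14 for Hk1, and Hk1 was 0.13 without adult control 6. Hk2 alone had a negative value, -0.16 ± 0.0791 (adjusted p = 0.188). Taken as a list, 9 of 10 members had positive values, with a median of 0.29 beside -0.002 over all genes, and 8 had an unadjusted p under 0.05, beside 27.3% of genes. For 8 members the recipients lay above the controls without overlap, beside 13.1% of genes higher, 12.0% lower and 25.1% in either direction, Pgam1 by the smallest margin (54.72 CPM in adult recipient 2 and 54.67 CPM in adult control 5).

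The 3 calls did not hold in every setting. Without adult recipient 4, adult control 5 or adult control 6, 0 of all genes passed, with 4491 at an unadjusted p under 0.05 when all libraries were used. Adjusted p was then 0.0744, 0.0801 and 0.122 for Aldoa, at log2 fold changes of 0.34, 0.38 and 0.32. For Pgam2 the values were 0.39, 0.46 and 0.40, with adjusted p of 0.0672, 0.0637 and 0.0919. Aldoc ranged over 0.69 to 0.90 and lost its call without any 1 of adult recipients 1, 2 or 4 or any 1 of the adult controls, and with limma voom (adjusted p = 0.0722). Across 15332 genes with a known transcript length, the log2 fold change fell with length (Spearman's rho -0.45, across genes, which are not independent replicates), and rho of single libraries, taken on log2 CPM relative to the mean of all libraries, was -0.34 to -0.21 in adult recipients and 0.03 to 0.13 in adult controls. By the longest coding transcript, Hk2 was the longest of the members, at 5513 nt, and Pgam2 the shortest, at 840 nt. The trend itself was fitted on the longest transcript of any kind of each gene, which may differ. With this trend removed 0 genes passed, and the values were 0.25 (adjusted p = 0.0799) for Aldoa, 0.26 (adjusted p = 0.0966) for Pgam2, 0.77 (adjusted p = 0.0711) for Aldoc and -0.02 (adjusted p = 0.906) for Hk2. Eno1, Eno3, Ldhb and Ldha passed as well with DESeq2, in a fit of the adult groups alone, and without neonatal control 8 (adjusted p from 0.0252 to 0.0402), a library of neither group. Ldha passed also with RLE size factors (adjusted p = 0.0440) and without neonatal recipient 2 (adjusted p = 0.0377).

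**Figure D3:**
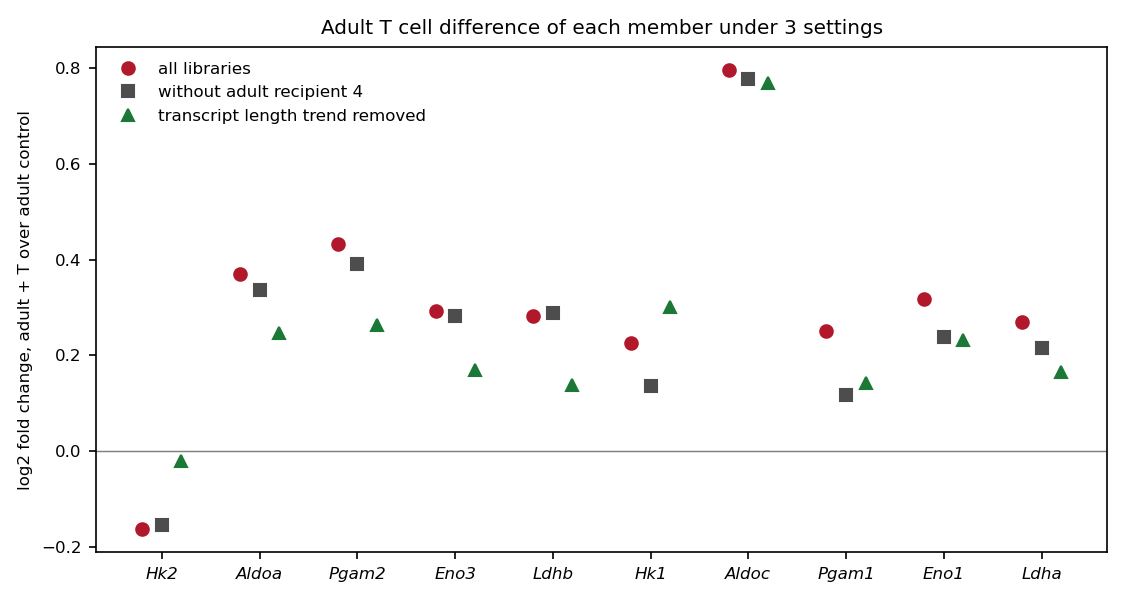
Log2 fold change of adult recipients over adult controls for each member with all libraries (circles), without adult recipient 4 (squares) and with the transcript length trend removed (triangles); the horizontal line marks 0. The 9 other members than Hk2 lie above 0 and Hk2 lies below it in each setting, and Aldoc lies highest in each, at 0.80, 0.78 and 0.77.

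Marker sums of the cells a ventricle could hold stood beside these values. Cardiomyocyte markers summed to 64046 to 71152 CPM in adult recipients and 52123 to 55940.3 CPM in adult controls, with 4 of 10 called higher and 1 lower. Erythroid markers summed to 4936 to 6995 CPM in adult recipients and 3833 to 4082 CPM in adult controls, with 0 of 6 called. Macrophage markers, at 209 to 286 CPM in adult recipients and 221 to 291 CPM in adult controls, had 0 of 10 called. T cell markers summed to 3.27 to 6.19 CPM in adult recipients and 2.15 to 3.21 CPM in adult controls, with 1 of 4 tested members called higher. Of the other lists, 1 of 3 tested neuron and glia markers was called lower, 1 of 1 tested adipocyte markers was called higher, and 0 of 7 neutrophil, 0 of 7 fibroblast, 0 of 6 endothelial and 0 of 5 tested skeletal muscle markers were called. Of all genes tested, 8.55% were called between adult recipients and adult controls. The part of these cells in the members' differences was not tested. Between the ages, 50.7% of all genes tested were called in recipients and 30.9% in controls. Macrophage markers were lower in adults, with 10 of 10 called between recipients and 7 of 10 between controls, at 683 to 1024 CPM in neonatal recipients and 256 to 812 CPM in neonatal controls. Endothelial markers had 4 of 6 called higher in adults in both comparisons, fibroblast markers 2 of 7 higher and 1 lower in both, and neutrophil markers 5 of 7 lower between recipients and 0 of 7 between controls. Cardiomyocyte markers had 7 of 10 called higher and 1 lower between recipients, and 2 higher and 1 lower between controls. Erythroid markers had 5 of 6 called higher between recipients and 1 of 6 between controls, T cell markers 2 of 4 and 0 of 4, and the part of these cells in the age differences was not tested either. Skeletal muscle markers had 4 of 5 tested members lower in adults in both comparisons, at sums below those of the neonatal groups, and Myod1 was at 0 counts in both control groups. Neuron and glia markers summed to at most 40.7 CPM in any library, with Gfap at 0 counts in adult controls and Snap25 at 0 counts in adult recipients, and adipocyte markers to at most 41.5 CPM, with Lep at 0 counts in 3 of the 4 groups.

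In neonatal hearts, which the study set out to compare, none of the 10 members differed between recipients and controls past the threshold. Per-gene levels overlapped between the groups for all 10, beside 0.627% of genes that lay higher without overlap, 0.736% lower and 1.36% in either direction. Log2 fold changes ran from -0.11 for Ldhb to 0.20 for Pgam1, with a median of 0.03. The smallest adjusted p over all genes was 0.999. edgeR, DESeq2 and limma voom each called 0 of all genes, and 3.12% of genes but 0 members had an unadjusted p under 0.05. The 95% intervals reached from -0.33 to 0.32 for Aldoc and from -0.05 to 0.46 for Pgam1, the widest, and from -0.12 to 0.17 for Hk2, the narrowest. Eno3 measured 803 ± 106 CPM in neonatal recipients and 864 ± 136 CPM in neonatal controls, a log2 fold change of -0.11 ± 0.105, which was 0.003 without control 8. Ldhb measured 631 ± 63.1 CPM in neonatal recipients and 679.9 ± 103 CPM in neonatal controls, -0.11 ± 0.0949, and -0.0036 without control 8. Macrophage markers, all 10 positive with a median of 0.58 and 0 called, stood beside these values, and their part was not tested.

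Whether the T cell difference itself differed between adult and neonatal hearts was tested as the difference of both differences. No member passed, and no gene did in edgeR, with 15.3% of genes and 5 members at an unadjusted p under 0.05. These were Pgam2 (0.48 ± 0.129, adjusted p = 0.182), Aldoc (0.80 ± 0.265, adjusted p = 0.200), Ldhb (0.39 ± 0.140, adjusted p = 0.217), Aldoa (0.33 ± 0.122, adjusted p = 0.223) and Eno3 (0.40 ± 0.154, adjusted p = 0.241). limma voom called 0 genes and DESeq2 called 174, Pgam2 among them (adjusted p = 0.0298). The T cell differences of the members were thus not shown in edgeR to differ between the ages. All these comparisons share libraries, so their values are set side by side and not correlated.

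Between recipients and controls the isozyme ratios could be tested only weakly. Of 15 such tests, in adults, in neonates and for the difference of both, none passed, and the smallest adjusted p was 0.163 over 20 ratio tests. The ratio of Aldoa to Aldoc differed by -0.43 on the log2 scale between adult recipients and adult controls (exact permutation p = 0.0571), and that of Hk2 to Hk1 differed by -0.39 (exact permutation p = 0.0857). With 4 against 3 libraries, and with 4 against 4, the smallest possible p is 0.0286, so a single ratio within an age could not pass after adjustment over 20 tests, and the lack of a call says little there. For Eno3 over Eno1 and Ldhb over Ldha in adults the differences were -0.02 and 0.01, with exact permutation p of 0.829 and 0.943. In neonatal hearts they were -0.18 and -0.15, with exact permutation p of 0.543 and 0.486. Pgam2 over Pgam1 differed by 0.19 in adults and -0.26 in neonates (exact permutation p = 0.0527 for the difference, adjusted p = 0.163). For the difference, T cell and control labels were exchanged within each age. Its null is thus no T cell difference at either age, and an equal difference at both ages was not tested exactly. Without neonatal control 8 the neonatal values were -0.08 for Pgam2 over Pgam1, 0.02 for Eno3 over Eno1 and -0.03 for Ldhb over Ldha, and the difference for Pgam2 over Pgam1 was 0.27. With each library left out, the neonatal value of Pgam2 over Pgam1 ran from -0.34 to -0.08 and the adult value of Hk2 over Hk1 from -0.55 to -0.25.

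**Figure D4:**
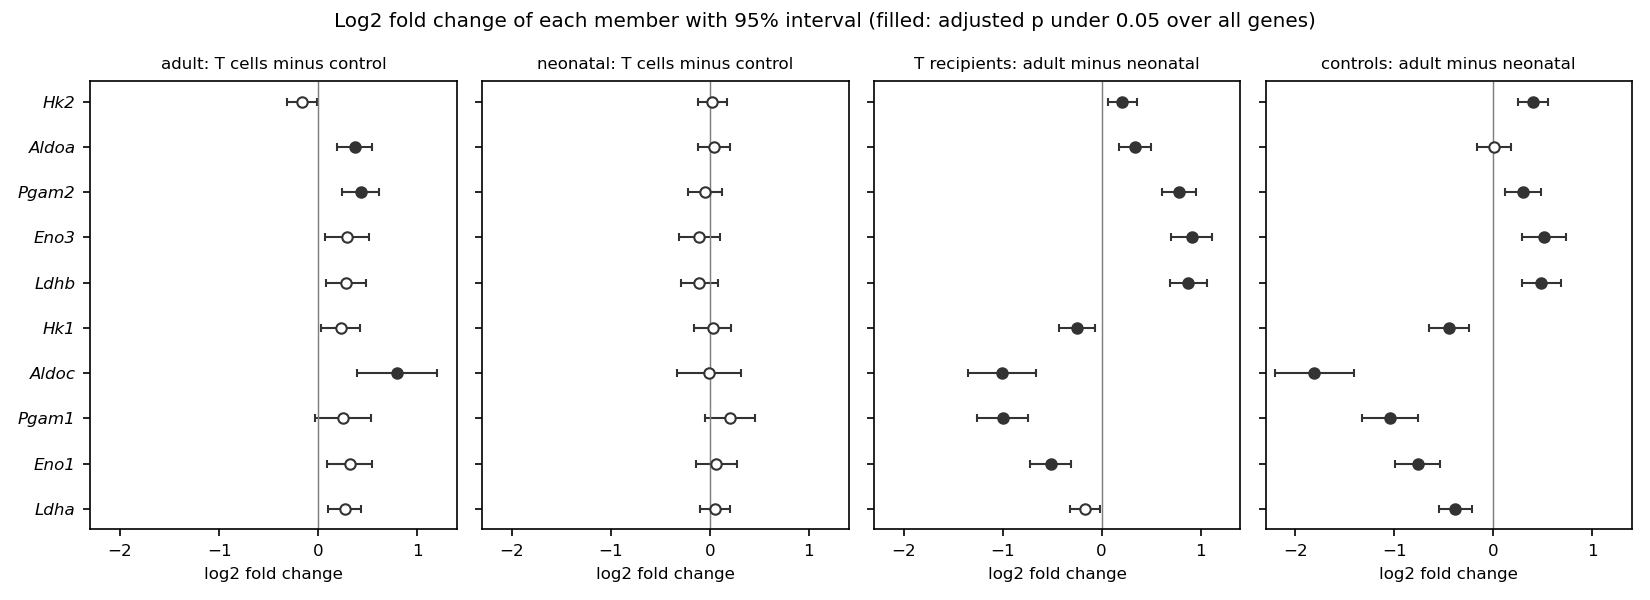
Log2 fold change of each member with its 95% interval in 4 comparisons, the first group named over the second; filled points have an adjusted p under 0.05 over all genes. Filled points number 3 for T cells in adults, 0 for T cells in neonates and 9 in each comparison of ages. In both comparisons of ages, filled points of Hk2, Pgam2, Eno3 and Ldhb lie right of 0 and those of Hk1, Aldoc, Pgam1 and Eno1 left of it.

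Of 8 genes of the other steps, 1 was higher and 2 were lower in adult than in neonatal recipients, and 1 was higher and 3 were lower between the controls. Of all genes tested, 23.8% were higher and 26.9% lower between recipients, and 15.6% were higher and 15.4% lower between controls. Phosphofructokinase, which commits hexose phosphate to glycolysis, had isozyme genes called in opposite directions. Pfkm, the muscle form, had log2 fold changes of 0.82 ± 0.0824 in recipients and 0.57 ± 0.0879 in controls, and Pfkp, the platelet form, was lower, at -0.97 ± 0.123 in recipients and -1.08 ± 0.135 in controls. Pgk1, the phosphoglycerate kinase upstream of the mutases, was lower, at -0.42 ± 0.0859 in recipients and -0.60 ± 0.0939 in controls, and Gapdh, which oxidises glyceraldehyde 3-phosphate, measured 0.05 ± 0.0867 (adjusted p = 0.630) in recipients and -0.28 ± 0.0942 (adjusted p = 0.0320) in controls. In adult hearts with T cells all 8 had positive values, with a median of 0.27, and 2 passed, Gapdh at 0.36 ± 0.0943 (adjusted p = 0.0313) and Tpi1, triose phosphate isomerase, at 0.27 ± 0.0806 (adjusted p = 0.0433). Of all genes 8.55% passed there. Both calls were lost, as 0 of all genes passed, without adult recipient 4, adult control 5 or adult control 6, and with the length trend (rho -0.45) removed. In neonatal hearts with T cells 0 of 8 passed.

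Further isozymes of the same and other steps were rare. Of 11 listed, 4 had enough counts to be tested, and the summed level of all 11 was 43.9 to 47.3 CPM in adult recipients, 38.3 to 43.3 in adult controls, 49.2 to 59.6 in neonatal recipients and 43.8 to 54.6 in neonatal controls. Hk3, a hexokinase of leukocytes, averaged 1.29 CPM in adult recipients, 1.34 in adult controls, 16.8 in neonatal recipients and 10.8 in neonatal controls. Its log2 fold change with age was -3.71 ± 0.451 in recipients and -3.01 ± 0.495 in controls. Eno2, the neuronal enolase, was lower in adults, at -1.38 ± 0.303 in recipients and -1.11 ± 0.327 in controls. Bpgm, the red cell bisphosphoglycerate mutase, measured 0.30 ± 0.0894 (adjusted p = 0.00950) in recipients and 0.11 ± 0.0962 (adjusted p = 0.417) in controls.

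Among genes of glucose and lactate transport, the insulin-responsive glucose transporter gene was higher and that of the fetal heart lower in adults. Of 6 transport genes, 2 were higher and 3 lower in adults in each comparison of ages, and 0 passed for T cells in adults or neonates. Of all genes tested, 50.7% were called between recipients of different age, 30.9% between controls and 8.55% for T cells in adults. Slc2a4, the insulin-responsive glucose transporter, was higher in adults by 0.71 ± 0.0932 in recipients and 0.53 ± 0.0994 in controls, and Slc2a1, the glucose transporter of the fetal heart, was lower, at -1.62 ± 0.208 in recipients and -1.83 ± 0.233 in controls. Bsg, the chaperone of lactate transporters, was higher by 0.79 ± 0.0832 in recipients and 0.58 ± 0.0887 in controls. Of the lactate transporters themselves, Slc16a3 was lower, at -2.18 ± 0.440 in recipients and -2.59 ± 0.506 in controls, and so was Slc16a1, at -0.29 ± 0.0716 in recipients and -0.39 ± 0.0778 in controls. Among 14 regulators of glycolysis and of pyruvate entry into mitochondria, 5 were higher and 5 lower in adult recipients and 4 were higher and 3 lower in adult controls. These counts stand beside the same shares of all genes, and 0 of the 14 regulators passed for T cells at either age. Pdk2 and Pdk3 are kinases that switch off pyruvate dehydrogenase, and they were called in opposite directions, Pdk2 at 0.98 ± 0.0959 in recipients and 0.74 ± 0.102 in controls and Pdk3 at -0.61 ± 0.0894 in recipients and -0.76 ± 0.0978 in controls. Pdk4, another of these kinases, measured 0.99 ± 0.315 (adjusted p = 0.0206) in recipients and 1.28 ± 0.335 (adjusted p = 0.0129) in controls. Pfkfb3, a producer of the phosphofructokinase activator fructose 2,6-bisphosphate, was lower, at -1.01 ± 0.142 in recipients and -0.55 ± 0.154 in controls, and Mpc2, of the mitochondrial pyruvate carrier, measured 0.85 ± 0.109 (adjusted p = 6.13e-06) in recipients and 0.39 ± 0.116 (adjusted p = 0.0165) in controls.

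Reads of near-identical copies limit some of these values. The retrogene Eno1b held 14.9% to 16.5% as many counts as Eno1 in every library, and Aldoart1 0.495% to 0.799% and Aldoart2 0.00969% to 0.0233% as many as Aldoa. Counts of Eno1 and Pgam1 were fractional in all libraries, those of Hk1 and Ldha in 93.3% of libraries, of Aldoa in 86.7%, of Ldhb in 80% and of Eno3 in 46.7%, and those of Hk2, Aldoc and Pgam2 in 20% or less. Some reads of these genes were thus counted in part, and the levels, that of Eno1b included, are uncertain to that extent. Adding the copies to their parent gene left the ratio of Eno3 to Eno1 higher in adults by 1.36 on the log2 scale, and that of Aldoa to Aldoc by 1.56. Of 7 copies listed, 3 were in the count table, and none of these was a copy of Pgam1 or Ldha. The ratios of the other pairs thus had no copies to add.

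Within groups, Eno3 and Ldhb varied most closely with the muscle creatine kinase gene. For each member the deviations of log2 CPM from the group means were correlated over the 15 libraries with those of 7563 other genes with a mean of at least 20 CPM (7564 for Aldoc, itself below that level). The most alike genes were Ckm (r = 0.98) for Eno3 and Ckm (r = 0.96) for Ldhb, followed by Dok4 (r = 0.95) and Got2 (r = 0.94) for Eno3 and Acadvl (r = 0.96) and Gatd3a (r = 0.95) for Ldhb. For Pgam2 they were Gnas (r = 0.95), Tmem88 (r = 0.92) and Raly (r = 0.92). For Aldoa they were Adam15 (r = 0.93), Pgls (r = 0.91) and Eva1b (r = 0.90), and for Ldha Ddx39 (r = 0.93), Ruvbl2 (r = 0.92) and the glycolytic Pgk1 (r = 0.92). Eno1 was closest to its copy Eno1b (r = 0.99), followed by G630055G22Rik (r = 0.99) and Pcolce (r = 0.96), and Pgam1 to Selenom (r = 0.96), Ttll12 (r = 0.94) and Efhd2 (r = 0.94). Among the 3 genes most like Hk1 were Bmp1 (r = 0.93) and Tgfb1i1 (r = 0.93). Aldoc was closest to Bcl7b (r = 0.87), Mcm7 (r = 0.86) and Scnm1 (r = 0.83), and Hk2 to Slc11a2 (r = 0.80), Stat5a (r = 0.71) and Rab3a (r = 0.71), the lowest correlations of the 10. These correlations share libraries, scaling and transcript length trends, and they were picked as the highest of all these genes, so they describe these libraries only. None was computed without neonatal control 8, the highest neonatal library for Eno3 and Ldhb, so its weight in these values is not known.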

How the data were processed

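Polyadenylated RNA of left ventricles was sequenced as 15 stranded libraries, per the labels' protocols. Per the submitters' processing notes, bcl2fastq 2.20.0.422, cutadapt 2.5, STAR 2.7.2b, featureCounts 1.6.4, DESeq2 1.24.0 and GRCm38.p6 were used. The authors deposited 1 table of unscaled expected counts per gene, in which 61.1% of non-zero values are whole. The strand setting and the rule for fractions are not given in the sources used here, so reads of overlapping antisense genes may be included. The length column equals the genomic span in 100% of genes and was not used.

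Counts were rounded, genes filtered with filterByExpr (minimum count 10, minimum total 15) and 16437 genes fitted with TMM scaling and robust quasi-likelihood tests in edgeR 4.0.16 (R 4.3.3), 1 coefficient for each of 4 groups. Tests were two-sided. Standard errors were derived from the F statistic (size of the change over the root of F), and intervals given as 95% span 1.96 of them. They are approximate and somewhat narrower than the F test implies. For Hk2 between adult recipients and adult controls the interval ran from -0.319 to -0.009, at an unadjusted p of 0.0525 in the quasi-likelihood F test. Log2 CPM used a prior count of 1. Isozyme ratios were compared by exact permutation of libraries, with Benjamini-Hochberg adjustment over 20 tests. Levels per kb used the longest coding transcript of GENCODE M21, and the length trend the longest of any kind. Promoter windows came from RefSeq. The alternatives were other scalings, no filter, DESeq2 1.42.0, limma voom (limma 3.58.1), fits of only the groups compared, a replicate block, removal of the transcript length trend by a spline with 5 degrees of freedom, addition of copies, a pseudocount of 1 CPM and each library left out. Between libraries of 1 group chi-square per degree of freedom was at least 9.65, so no library was counted as a duplicate. The steps were tested on simulated data. Members, lists, tests and the rule for named genes were chosen with earlier results of these data known: all members, up to 4 genes with the smallest p past the threshold per pathway list and comparison, and the 3 most alike genes per member. Marker lists are given as counts and sums. A few genes that this rule names are not reported here.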

Additional observations from a re-analysis of the deposited data

Results flagged for a closer look

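For 8 values the gap between 1 library and its nearest neighbour in a group of 4 exceeded 0.829 of the group's range (Dixon's 95% value), out of 45 groups checked, and chance alone marks about 1 group in 20. Among adult recipients, Hk2 reached 116 CPM in recipient 1, above the others, and Eno3 was lowest there at 1411 CPM. Ldhb was highest in adult recipient 2 at 1229 CPM. Adult recipient 4 had the highest Hk1, 307 CPM, and the highest Pgam1, 77.4 CPM. Among neonatal controls, library 8 had the highest Ldhb, 834 CPM, the highest ratio of Pgam2 to Pgam1, 5.05, and the highest ratio of Ldhb to Ldha, 0.753. No difference of T cell effects between the ages passed its test for a member or a ratio.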

How the results depend on the processing

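The 5 age differences of the isozyme ratios kept their direction and their side of the threshold under all 3 other settings and with each of 15 libraries left out. Among these settings, addition of copies could change only the enolase and aldolase ratios, so it was no check of the other pairs. Genes called for T cells in adults numbered 1406, and 2324 with DESeq2 and 0 with the length trend removed. Members called there numbered 3, and 7 with DESeq2, 7 in a fit of the 2 groups alone and 0 with the trend removed. The difference of T cell effects gave 0 genes and 0 members, and 174 and 1 with DESeq2. The cause of these shifts was not tested. Leaving out 1 library at a time gave 0 to 1811 genes and 0 to 7 members for T cells in adults, with 464 genes without adult recipient 2, and 0 to 9 genes for T cells in neonates, the 9 without neonatal control 6. With each library left out, 8 members kept direction and call between adult and neonatal controls and 7 between recipients.

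Signs turned for the following values, none of which passed its threshold with all libraries and the main settings. With the length trend removed, Pgam1 in the difference of T cell effects was -0.0375, Hk2 over Hk1 in neonates 0.00408 and Ldhb over Ldha in adults -0.0263. Aldoa between controls was -0.159 with library totals alone, -0.00835 without a filter and -0.0814 with a replicate block. With each library left out, log2 values for T cells in neonates ran as follows. The genes gave Hk2 -0.0241 to 0.0800, Hk1 -0.0302 to 0.0592, Aldoa -0.00287 to 0.0960, Aldoc -0.136 to 0.112, Pgam2 -0.109 to 0.00223, Eno3 -0.169 to 0.00292 and Eno1 -0.0230 to 0.140, and the ratios Hk2 over Hk1 -0.0493 to 0.0460, Aldoa over Aldoc -0.0367 to 0.124 and Eno3 over Eno1 -0.274 to 0.0174. In adults Eno3 over Eno1 -0.0688 to 0.0424 and Ldhb over Ldha -0.0150 to 0.0721 were found, in the difference of T cell effects Pgam1 -0.0864 to 0.186 and Eno3 over Eno1 -0.0388 to 0.253, and Aldoa between controls ran from -0.0368 to 0.0621.

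Replicate numbers are shared only across ages, and nothing in the labels ties them. Correlations of deviations for equal numbers were 0.07, 0.11 and -0.07 in recipients and -0.06 and 0.31 in controls, and not every library correlated best with its own number (2 of 3 adult and 1 of 3 neonatal recipients, and 2 of 2 adult and 1 of 2 neonatal controls, did). A replicate block gave 7239 genes and 7 members between recipients and 3724 and 8 between controls, against 8042 and 4253 genes for the same groups without it. Under the block, adjusted p was 0.0709 for Hk2 and 0.112 for Hk1 between recipients and 0.0851 for Pgam2 between controls, which ended these 3 calls. Depth limits Aldoc most, at 1.42 to 7.38 CPM.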
